A study of Mus musculus with 9 samples.

Results

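The 35 genes described here encode the proteins of glucose breakdown and of the response to low oxygen: glucose carriers, glycolytic enzymes, lactate carriers, pyruvate dehydrogenase kinases, oxygen sensing proteins and well-known target genes of hypoxia. They were chosen by symbol from the 27179 genes of the deposited count table, and all 35 were found there. RNA was sequenced from the mouse line HPC7, which keeps the traits of early blood progenitors as long as stem cell factor is supplied. The cells had been infected with a retrovirus carrying wild-type Snai1, mutant Snai1 or no gene, with 3 libraries per group. Snai1 is a zinc finger repressor, and the mutant, in which alanine replaces the phenylalanine at residue 5, binds the histone demethylase Lsd1 poorly. The comparison of both proteins with the empty vector, and with each other, asks whether changes in RNA depend on that contact.

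All 3 groups were the same HPC7 line in RPMI with 10% FCS, 0.05 mM 2-mercaptoethanol and 100 ng/ml stem cell factor. All received the MSCV-IRES-GFP vector, in which the viral promoter drives the insert and a green fluorescent protein from a single transcript. Fluorescent cells were sorted 1 week after infection. No drug and no change of oxygen was named for any group. The labels do not say whether the 3 replicates were separate infections or cultures, so the p-values rest on the variation among libraries, and this may be technical alone.

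Glycolysis splits glucose into pyruvate, and its pace is set mainly at glucose entry, at hexokinase, at phosphofructokinase and at pyruvate kinase. Several of these steps have alternative isoenzymes whose mix differs between blood cell types. Under low oxygen, prolyl hydroxylases stop marking hypoxia-inducible factor 1 alpha (HIF-1 alpha) for destruction, and the stable factor raises transcription of glycolytic genes, of the kinases that keep pyruvate out of mitochondria, and of genes such as Vegfa. Blood progenitors in the marrow are known for a strongly glycolytic metabolism, and activated macrophages and neutrophils for another.

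Library totals ran from 18332451 to 20860314 counts, and 12484 genes passed a filter on low counts. Levels are in CPM, which are counts scaled to a common library size, here the size adjusted by TMM. Snai1 was at 425, 488 and 562 CPM with the wild-type vector, 471, 415 and 494 CPM with the mutant vector and 1.06, 0.723 and 0.698 CPM with the empty vector, and Kdm1a, which encodes Lsd1, averaged 201.5, 199 and 200.5 CPM in the same groups. All 10 progenitor markers were among the tested genes. Their sums were 9580, 8084 and 8029 CPM in wild-type replicates 1 to 3, 7931 to 8148 CPM in mutant and 7964 to 8176 CPM in empty vector libraries. Of the 10, 2 were higher and 4 lower with the wild type than with empty vector, beside 25.2% and 24.3% of all tested genes. Cell type markers also moved. The sum over 15 monocyte and macrophage markers was 915, 1187 and 1565 CPM in wild-type replicates 1 to 3, 161 to 188 CPM in mutant and 158 to 186 CPM in empty vector libraries. Of the 14 tested ones 12 were higher and 2 lower with the wild type than with empty vector, beside 25.2% and 24.3% of all tested genes. Of these markers Ly6c2, Ms4a6c and Marco had 0 counts in all empty vector libraries. The 12 late neutrophil markers summed to 79.7, 119 and 182 CPM with wild type, 3.89 to 5.76 CPM with the mutant and 3.90 to 4.94 CPM with empty vector. Ngp, Mmp8, S100a8, S100a9 and Retnlg among them had 0 counts with empty vector, and Retnlg had 0 counts in all 9 libraries. The 9 erythroid markers summed to 464 to 681 CPM with wild type, 759 to 859 CPM with the mutant and 756 to 774 CPM with empty vector, with Hba-a1 at 0 in all 9 libraries. In the empty vector replicate 1 library a single gene without a symbol took 3.62% of all counts.

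Wild-type replicate 1 stood apart from the other wild-type libraries for the glycolysis and hypoxia genes. It was the lowest of the 3 wild-type libraries for 31 of the 34 tested genes of the group, against 43.7% of all tested genes. The median over these 34 genes of the difference from the empty vector mean was 0.02, 0.55 and 0.74 in log2 CPM in wild-type replicates 1 to 3. It was -0.02, -0.09 and 0.21 in the mutant libraries, and 0.06, -0.06 and -0.00 in the empty vector libraries. Each main count below is therefore given with and without wild-type replicate 1. Because that library was singled out by the levels of these same genes, leaving it out tends to raise their fold changes. Results without it are a description and not further support.

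The promoters of the called genes with the largest fold changes that matched the RefSeq promoter table are shown here because 4 separate roles are covered: a hexokinase, a phosphofructokinase, a glucose carrier and a stress target gene. They are given 5′ to 3′ on the strand of the gene, from GRCm38.p6, starting 250 bases before the RefSeq transcription start and ending before the first annotated exon base. Capitals mark ACGTG or GCGTG on either strand, the core letters bound by HIF-1; ACGTG also lies within CACGTG, the E-box of Myc proteins. The Hk3 stretch (chr13:55021386-55021635, minus strand) holds 1 such match.
Hk3: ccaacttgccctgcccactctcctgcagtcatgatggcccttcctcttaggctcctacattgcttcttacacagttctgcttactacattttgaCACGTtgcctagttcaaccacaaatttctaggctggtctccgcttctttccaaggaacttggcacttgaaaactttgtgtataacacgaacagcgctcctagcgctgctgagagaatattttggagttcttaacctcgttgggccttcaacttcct
The Pfkp stretch (chr13:6648778-6649021, minus strand) holds 3 matches, which begin 136, 68 and 23 bases before the start.
Pfkp: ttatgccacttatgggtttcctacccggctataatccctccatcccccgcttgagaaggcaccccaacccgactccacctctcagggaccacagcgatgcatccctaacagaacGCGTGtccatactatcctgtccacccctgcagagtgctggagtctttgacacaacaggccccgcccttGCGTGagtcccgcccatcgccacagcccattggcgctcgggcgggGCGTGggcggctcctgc
The Slc2a1 stretch (chr4:119108495-119108710, plus strand) holds 1 match, which begins 61 bases before the start, and another begins 36 bases before it and runs past the printed end.
Slc2a1: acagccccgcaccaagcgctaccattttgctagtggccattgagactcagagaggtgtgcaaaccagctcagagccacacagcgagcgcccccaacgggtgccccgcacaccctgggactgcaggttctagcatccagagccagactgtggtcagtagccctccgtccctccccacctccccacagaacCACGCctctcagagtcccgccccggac
The Ddit4 stretch (chr10:59951835-59952020, minus strand) holds 2 matches, 187 and 115 bases before the start.
Ddit4: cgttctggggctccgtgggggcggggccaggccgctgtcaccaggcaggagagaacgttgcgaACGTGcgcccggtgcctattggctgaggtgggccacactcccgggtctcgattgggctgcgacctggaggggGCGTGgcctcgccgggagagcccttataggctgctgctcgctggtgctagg
RefSeq spans of Hk3 and Pfkp reach past these starts, to 55021475 and 6649060, so other starts may exist. In the same 250-base window, 38.6% of the 32851 promoters in the table hold ACGTG or GCGTG, and 41.5% of its 27025 genes have such a promoter. Among the 33 genes of the group with an entry, 30 have such a promoter: 15 of 16 that were called higher with wild-type Snai1 and 15 of 17 others. CAGGTG, the E-box that Snai1 binds, searched on both strands, lies in 17.2% of all promoters. Counted per gene, it lies in 19.4% of all genes, in 0 of the 16 and in 5 of the 17, namely Bnip3, Egln1, Ldha, Pfkm and Vegfa. A match is a description of letters and not a bound site. Ndrg1 and Slc2a3 had no entry in the table.

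With wild-type Snai1, 17 of the 34 tested genes of the group were higher than with empty vector and 0 were lower. A gene was called when its p-value in the edgeR quasi-likelihood test, adjusted over all 12484 genes by the Benjamini-Hochberg method, was under 0.05; in this comparison 25.2% of all tested genes were called higher and 24.3% lower. The remaining gene, Ldhb, had 0 counts in all 9 libraries, which allows up to 0.144 to 0.161 CPM at a floor of 3 counts per library. Hk3 passed the filter on low counts only through the libraries in which it was high; without it 16 of 33 genes were higher and 0 lower, and their median log2 fold change was 0.41. The called genes were the carriers Slc2a1 and Slc16a1, the hexokinases Hk1, Hk2 and Hk3, Pfkp, Pfkfb4, Gapdh, Pgam1, Eno2, Pkm, Pdk3, Hif1a, Egln3, Ndrg1, Ddit4 and P4ha1. Their log2 fold changes, Hk3 aside, ran from 0.27 to 2.40. In all 17 the 3 wild-type libraries lay above the 3 empty vector libraries, a pattern that 28.1% of all tested genes had. The median log2 fold change was 0.43 over the 34 genes and -0.00 over all tested genes, and the members' median was the same with Hk3 set to its lower bound. In bulk RNA, a change in the share of cells of a type and a change of RNA per cell cannot be told apart. The monocyte, neutrophil and erythroid marker sums given above moved with the same contrast, and their part in these results was not tested.

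Without wild-type replicate 1, 26 of the 34 were higher and 0 lower, where 29.9% of all tested genes were higher. Added were Gpi1, Pfkl, Pfkfb3, Aldoa, Tpi1, Pgk1, Eno1, Ldha, Bnip3 and Vegfa, and Eno2 was lost. The median over the 34 then was 0.67, a value that depends on leaving out a library picked by the levels of these genes.

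With mutant Snai1, 0 of the 34 genes were called in either direction against empty vector. In this comparison 0.00801% of all tested genes were called, namely Snai1 itself. Ddit4 was the single member at an unadjusted p under 0.05, where 4.83% of all tested genes were, and DESeq2 called 0 of the 17 members for which it gave an adjusted p. Log2 fold changes of the members other than Hk3 ran from -0.21 for Eno2 to 0.38 for Ddit4, with SEs of up to 0.48, and their adjusted p lay between 0.98 and 0.999. All 3 mutant libraries were above all 3 empty vector libraries for 2 genes, Slc2a1 and Ddit4, where 8.53% of all tested genes had that pattern. Without wild-type replicate 1, whose spread enters the shared fit, Ddit4 was called higher (log2 fold change 0.38, adjusted p 0.0475), where 0.222% of all tested genes were.

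The direct test of wild-type against mutant Snai1 called 17 of the 34 genes higher and 0 lower, where 24.5% of all tested genes were higher and 23.4% lower. They were the same 17 genes as in the comparison with empty vector, but both comparisons use the same wild-type libraries. In 15 of them the 3 wild-type libraries lay above the 3 mutant libraries, where 27.5% of all tested genes did. The exceptions were Hk2 and Egln3. The median log2 fold change was 0.47. Without wild-type replicate 1 the test called 25 genes higher and 0 lower, with a median of 0.56, where 29.7% of all tested genes were higher.

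**Figure D1:**
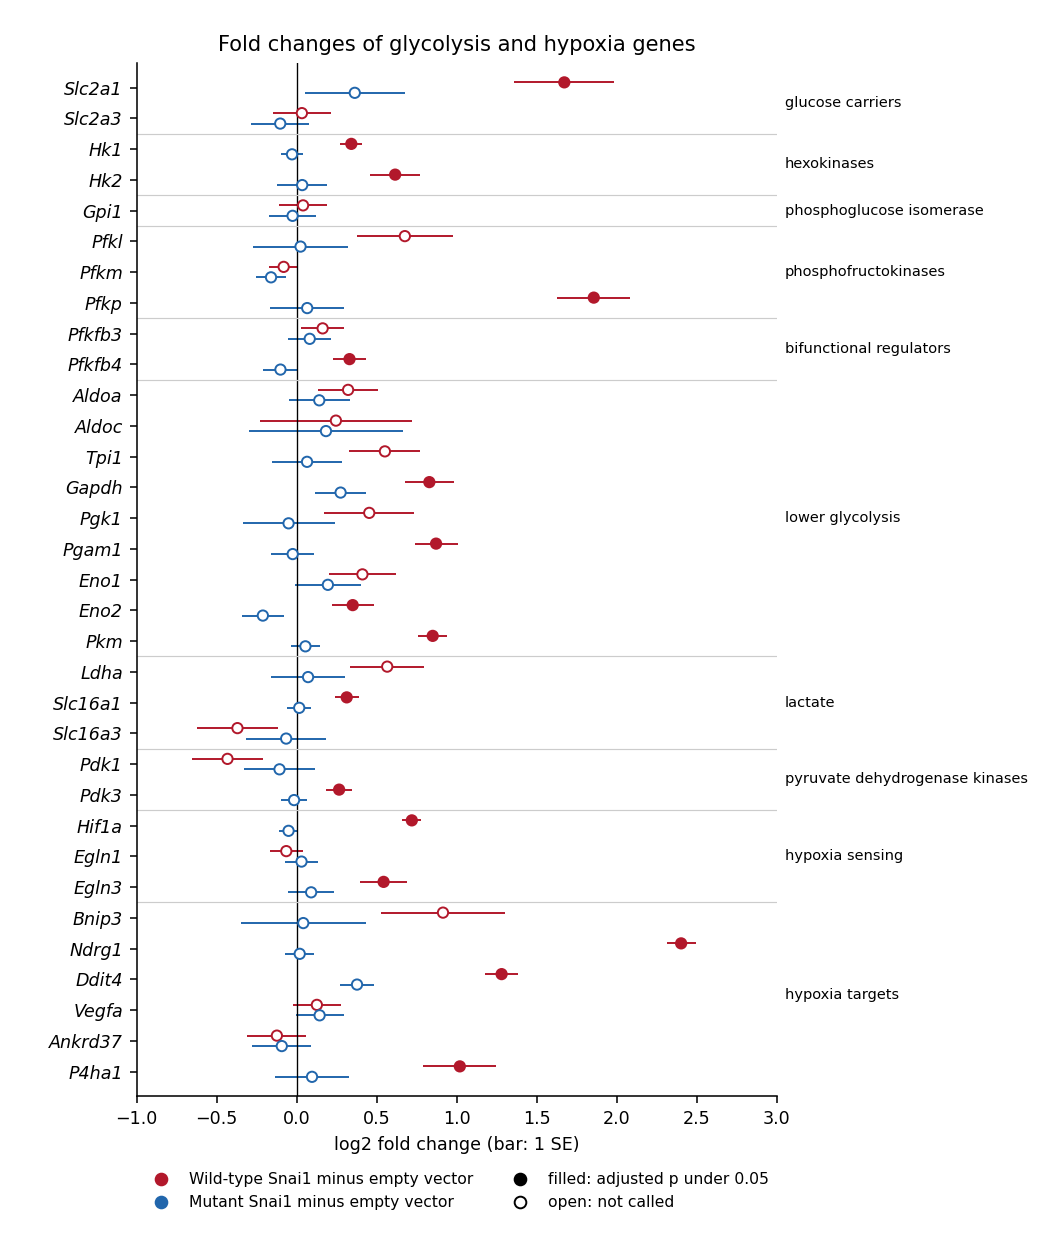
Log2 fold change of wild-type Snai1 (red) and mutant Snai1 (blue) minus empty vector for 33 genes in order of their role, with bars of 1 SE from the edgeR fit and filled points at an adjusted p under 0.05. Both comparisons share the 3 empty vector libraries; Hk3 and Ldhb, at 0 counts with empty vector, are not drawn. All filled points are red and lie right of 0, and the blue points lie between -0.21 and 0.38.

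Glucose enters through the carriers encoded by Slc2a1, the basal glucose carrier Glut1, and Slc2a3, the high-affinity carrier Glut3. Slc2a1 (gene 20525, chromosome 4, 119108745 to 119137330) showed 73.9, 158 and 197 CPM in wild-type replicates 1 to 3, 53.4, 52.1 and 67.7 CPM in mutant replicates, and 46.4, 44.6 and 43.7 CPM in empty vector replicates. The 3 groups did not overlap, and the lowest wild-type library was replicate 1. The wild type's log2 fold changes were 1.67 (SE 0.31, adjusted p 0.00255 by edgeR) over empty vector and 1.31 (SE 0.31, adjusted p 0.00846) over the mutant. Mutant over empty vector was 0.36 (SE 0.31, adjusted p 0.998). Slc2a3 averaged 159 ± 42.5 CPM with wild type, 145 ± 18.6 CPM with the mutant and 156 ± 13.4 CPM with empty vector (SD, n = 3 each), with overlapping groups. Counted per kilobase of gene length, Slc2a1 made up 50.2%, 59.0% and 60.8% of both carriers' RNA in the wild-type libraries, 37.3%, 38.0% and 38.5% in the mutant libraries and 29.9%, 32.7% and 29.8% in the empty vector libraries. The share was highest in every wild-type library and also higher in every mutant library than in any empty vector library. An exact two-sided permutation test gave p = 0.1 for each of these 3 comparisons, the smallest that 3 against 3 libraries can give.

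All 3 hexokinases, which trap glucose as its phosphate, were higher with wild-type Snai1 than with empty vector, where 25.2% of all tested genes were. Hk2 (gene 15277, chromosome 6, 82725025 to 82774454), the isoenzyme that HIF-1 is known to induce, had 239.7, 352 and 387 CPM in wild-type libraries, 206, 201 and 247 CPM in mutant libraries, and 223, 202 and 214 CPM in empty vector libraries. Wild-type replicate 1 lay within the range of the mutant libraries. Its log2 fold change was 0.62 (SE 0.16, adjusted p 0.00949 by edgeR) over empty vector and 0.58 (SE 0.16, adjusted p 0.013) over the mutant, a call lost without mutant replicate 2 (adjusted p 0.0514). Hk1, the general isoenzyme, averaged 419 ± 35.7 CPM with wild type, 324 ± 12.8 CPM with the mutant and 331 ± 11 CPM with empty vector, and was 0.34 higher over empty vector on the log2 scale (SE 0.07, adjusted p 0.00192). Its span overlaps the gene Hk1os.

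Hk3 (gene 212032, chromosome 13, 55005985 to 55021475), the hexokinase of myeloid cells, had 191 counts in the wild-type group, 1 in the mutant group and 0 in the empty vector group. The wild-type libraries were at 0.897, 2.94 and 5.67 CPM, and replicate 1 was again the lowest. Over a floor of 3 counts per empty vector library the wild-type mean stood at least 20.4-fold higher. Hk3 passed the filter on low counts through the wild-type libraries alone, so its edgeR call (adjusted p 0.00185) is a description and supports nothing further. Over the mutant the ratio was 187, with a 95% counting interval of 33.2 to 7431 that covers counting error only. Per length it made up 0.215%, 0.559% and 1.02% of hexokinase RNA in the wild-type libraries. In all 9 libraries Hk1 held most of that RNA, at 57.9% to 65.7% with wild type, 61.1% to 67.3% with the mutant and 63.6% to 66.9% with empty vector. The sum over the monocyte and macrophage markers was lowest in replicate 1 and highest in replicate 3 of the wild-type libraries, but its low value in replicate 1 rests on the abundant marker Ccr2 (195, 494 and 542 CPM). Without Ccr2 the sums were 720.1, 692.5 and 1024 CPM, and 9 of the 15 markers were higher and 5 lower in replicate 1 than in replicate 2. The late neutrophil markers summed to 79.7, 119 and 182 CPM in the same libraries, the order of Hk3. The part of monocytes, macrophages or neutrophils in the Hk3 reads was not tested, and the gene's span overlaps Unc5a.

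Phosphoglucose isomerase, encoded by Gpi1, was at 296, 424 and 482 CPM in the wild-type libraries, 377, 356 and 415 CPM in the mutant libraries and 403, 376 and 389 CPM in the empty vector libraries. These values were chosen for display after they were seen. Wild-type replicate 1 was the lowest of all 9 libraries and wild-type replicates 2 and 3 were the highest. Its log2 fold change was 0.04 (SE 0.15, adjusted p 0.841 by edgeR), and 0.22 (adjusted p 0.0111) without wild-type replicate 1.

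Phosphofructokinase, the committed step of glycolysis, is built from liver, muscle and platelet type subunits. The platelet type gene Pfkp (gene 56421, chromosome 13, 6579874 to 6649060) had 59.2, 94.6 and 117 CPM in the wild-type libraries, 25.1, 22.5 and 30.9 CPM in the mutant libraries and 25.8, 23.0 and 26.2 CPM in the empty vector libraries. Every wild-type library lay above every other library, and mutant and empty vector overlapped. Its log2 fold change was 1.86 (SE 0.23, adjusted p 0.000165 by edgeR) over empty vector and 1.79 (SE 0.23, adjusted p 0.000209) over the mutant, the largest among the called glycolytic enzymes after Hk3. The liver type gene Pfkl had 183, 416 and 461 CPM with wild type, 220.2, 199 and 255 CPM with the mutant and 243, 209.6 and 211 CPM with empty vector. Replicate 1 was the lowest of all 9 libraries and the other wild-type libraries the highest, so the log2 fold change of 0.68 (SE 0.30) did not pass (adjusted p 0.0959), whereas without replicate 1 it was 0.99 (adjusted p 2.51e-05); Pfkl was chosen for display after its values were seen. Pfkm, the muscle type, averaged 68.3 ± 6.57 CPM with wild type, 64.6 ± 6.37 CPM with the mutant and 72.2 ± 4.43 CPM with empty vector, with overlapping groups.

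Per length, Pfkp took 17.7%, 14.9% and 16.6% of phosphofructokinase RNA in the wild-type libraries, 7.40%, 6.82% and 7.99% in the mutant libraries and 6.85%, 6.76% and 7.42% in the empty vector libraries. Its share was similar in all 3 wild-type libraries, unlike the Pfkl level. Pfkm took 23.7%, 14.8% and 13.3% with wild type, 23.0%, 28.4% and 21.2% with the mutant and 23.9%, 27.2% and 28.6% with empty vector. The wild-type libraries lay below the empty vector libraries for Pfkm, with replicate 1 next to them. Pfkl held the largest share in every library, at 58.6% to 70.3% with wild type, 64.8% to 70.8% with the mutant and 64.0% to 69.3% with empty vector. The span of Pfkp overlaps Pitrm1 and that of Pfkm overlaps Senp1.

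**Figure D2:**
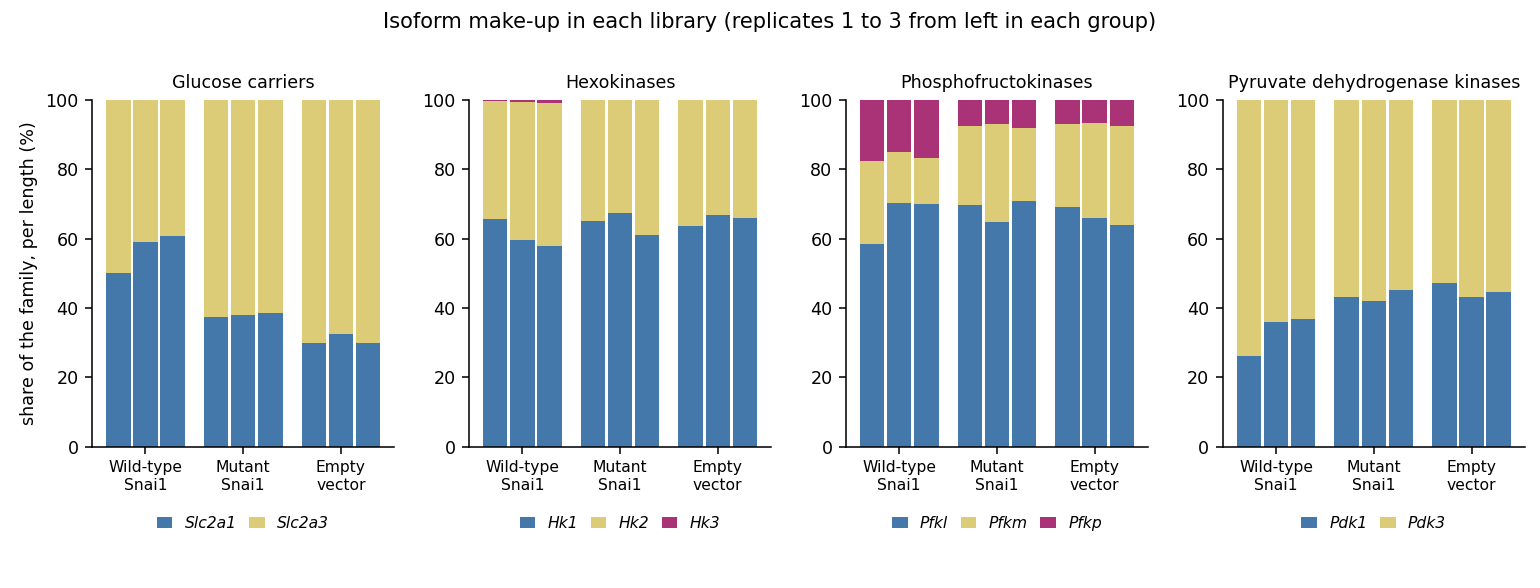
Share of each gene in the RNA of its family, in percent of the summed CPM per kilobase, for glucose carriers, hexokinases, phosphofructokinases and pyruvate dehydrogenase kinases in each of the 9 libraries. Slc2a1 took 50.2% to 60.8% with wild-type Snai1 and 29.8% to 32.7% with empty vector, and Pfkp 14.9% to 17.7% with wild type and 6.76% to 7.42% with empty vector.

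The bifunctional enzymes Pfkfb3 and Pfkfb4 make and remove fructose 2,6-bisphosphate, the main activator of phosphofructokinase. Pfkfb4 averaged 20.2 ± 2.38 CPM with wild type, 15.0 ± 1.14 CPM with the mutant and 16.1 ± 0.860 CPM with empty vector, and was 0.33 higher over empty vector on the log2 scale (SE 0.11, adjusted p 0.0245 by edgeR). This call was lost without wild-type replicate 2 or 3 or without empty vector replicate 1 or 2, with adjusted p of 0.0517 to 0.0924. Over the mutant it was 0.43 (SE 0.11, adjusted p 0.00684). Pfkfb3, the more abundant of both per length in every library, averaged 282 ± 59.9 CPM with wild type, 267 ± 23.8 CPM with the mutant and 252 ± 1.70 CPM with empty vector and did not pass (adjusted p 0.348). Without wild-type replicate 1 it passed, at a log2 fold change of 0.33 (adjusted p 0.000244).

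In lower glycolysis 4 of 9 genes were higher with wild-type Snai1 than with empty vector and 0 were lower, beside 25.2% and 24.3% of all tested genes. All 9 had positive log2 fold changes, where the median over all tested genes was -0.00. Pkm (gene 18746, chromosome 9, 59656576 to 59679372) encodes the pyruvate kinase of most tissues, the final ATP-forming step. It had 1859, 1898 and 2122 CPM in wild-type libraries, 1125, 997 and 1266 CPM in mutant libraries and 1133, 1040.5 and 1088 CPM in empty vector libraries. Wild-type replicate 1 was close to replicate 2, and no wild-type library overlapped another group. On the log2 scale Pkm was higher by 0.85 (SE 0.09, adjusted p 2.86e-05 by edgeR) over empty vector and 0.79 (SE 0.09, adjusted p 4.84e-05) over the mutant. Counts per gene do not separate the spliced forms of Pkm. Per length Pkm was the most abundant member with wild type, at 754 ± 54.5 CPM per kilobase, and Aldoa was the most abundant with the mutant, at 494 ± 79.9, and with empty vector, at 448 ± 40.9.

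Pgam1 (gene 18648, chromosome 19, 41911871 to 41918665), phosphoglycerate mutase, had 53.0, 63.8 and 69.5 CPM with wild type, 30.5, 29.8 and 39.8 CPM with the mutant and 37.8, 31.7 and 32.4 CPM with empty vector. Its wild-type libraries lay above all others, with log2 fold changes of 0.87 (SE 0.13, adjusted p 0.000422 by edgeR) over empty vector and 0.90 (SE 0.13, adjusted p 0.000371) over the mutant. Gapdh (gene 14433, chromosome 6, 125161852 to 125166467), the dehydrogenase often used as a reference gene, had 7.57, 9.10 and 7.72 CPM with wild type, 6.47, 5.39 and 4.75 CPM with the mutant and 4.25, 4.33 and 5.15 CPM with empty vector. These levels are low for an enzyme of central metabolism. Its log2 fold change was 0.83 (SE 0.15, adjusted p 0.00127) over empty vector and 0.55 (SE 0.15, adjusted p 0.0117) over the mutant, the second of which was lost without mutant replicate 3 (adjusted p 0.0523).

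Copies of these genes limit the counts. Of all 50-base words in the longest coding transcript of each gene, other annotated genes also hold 82.5% for Gapdh, 72.2% for Eno1, 68.0% for Pgk1, 41.5% for Pgam1, 34.4% for Pkm and 13.5% for Aldoa. How the authors' counting treated reads that match several places is not given in the sources used here, so the level and the change of Gapdh, Pgk1, Eno1 and Pgam1 are uncertain. For the genes outside lower glycolysis the share was 62.4% for Bnip3, 25.3% for Gpi1, 17.1% for Pfkp, 16.6% for Ldha, 14.6% for Ndrg1 and 11.4% for Ankrd37. The same limit holds for them, most of all for Bnip3.

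Eno2 (gene 13807, chromosome 6, 124760053 to 124769673), the neuronal enolase that hypoxia also induces, had 15.3, 13.3 and 13.6 CPM with wild type, 10.1, 9.78 and 8.74 CPM with the mutant and 9.36, 10.8 and 13 CPM with empty vector. Here replicate 1 was the highest wild-type library, in contrast to most of the genes, and empty vector replicate 3 came close to the wild-type libraries. Its log2 difference was 0.35 (SE 0.13, adjusted p 0.046 by edgeR) over empty vector and 0.56 (SE 0.13, adjusted p 0.00524) over the mutant. Without any of 8 single libraries, the exception being empty vector replicate 3, the first of these calls was lost, with adjusted p of 0.0572 to 0.18.

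Aldoa, Tpi1, Pgk1 and Eno1, which encode aldolase, triosephosphate isomerase, phosphoglycerate kinase and the general enolase, shared a pattern with Gpi1 and Pfkl. In each, wild-type replicates 2 and 3 lay above and wild-type replicate 1 lay below all empty vector libraries. Tpi1, chosen for display after its values were seen, had 408, 713 and 795 CPM with wild type, 463, 387 and 518 CPM with the mutant and 470.4, 408 and 429 CPM with empty vector, so that replicate 1 lay below by less than 1 CPM. Log2 fold changes over empty vector ran from 0.32 for Aldoa to 0.55 for Tpi1 with adjusted p of 0.0676 to 0.213, and without wild-type replicate 1 from 0.51 for Aldoa to 0.79 for Tpi1 with adjusted p of 0.000157 to 0.0267. Aldoc, the brain type aldolase, stayed below 1 CPM in every library.

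Of 34 genes, 12 had wild-type replicates 2 and 3 but not replicate 1 above all empty vector libraries, a pattern that 8.84% of all tested genes had. In 11 of the 12 replicate 1 lay below all empty vector libraries, as in 4.78% of all tested genes. The 11 were Slc2a3, Gpi1, Pfkl, Pfkfb3, Aldoa, Aldoc, Tpi1, Pgk1, Eno1, Ldha and Vegfa, and Bnip3 was the other. Wild-type replicate 1 was above all empty vector libraries for 17 of the 34 genes and below all for 15, replicate 2 for 29 and 2, and replicate 3 for 30 and 0. The 17 genes above in replicate 1 were the 17 called ones. Snai1 itself was at 425 CPM in replicate 1 and 488 and 562 CPM in replicates 2 and 3. The monocyte marker sum had this order only with Ccr2 included, and the late neutrophil marker sum (79.7, 119 and 182 CPM) had it too. The part of any of these in the pattern was not tested.

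**Figure D3:**
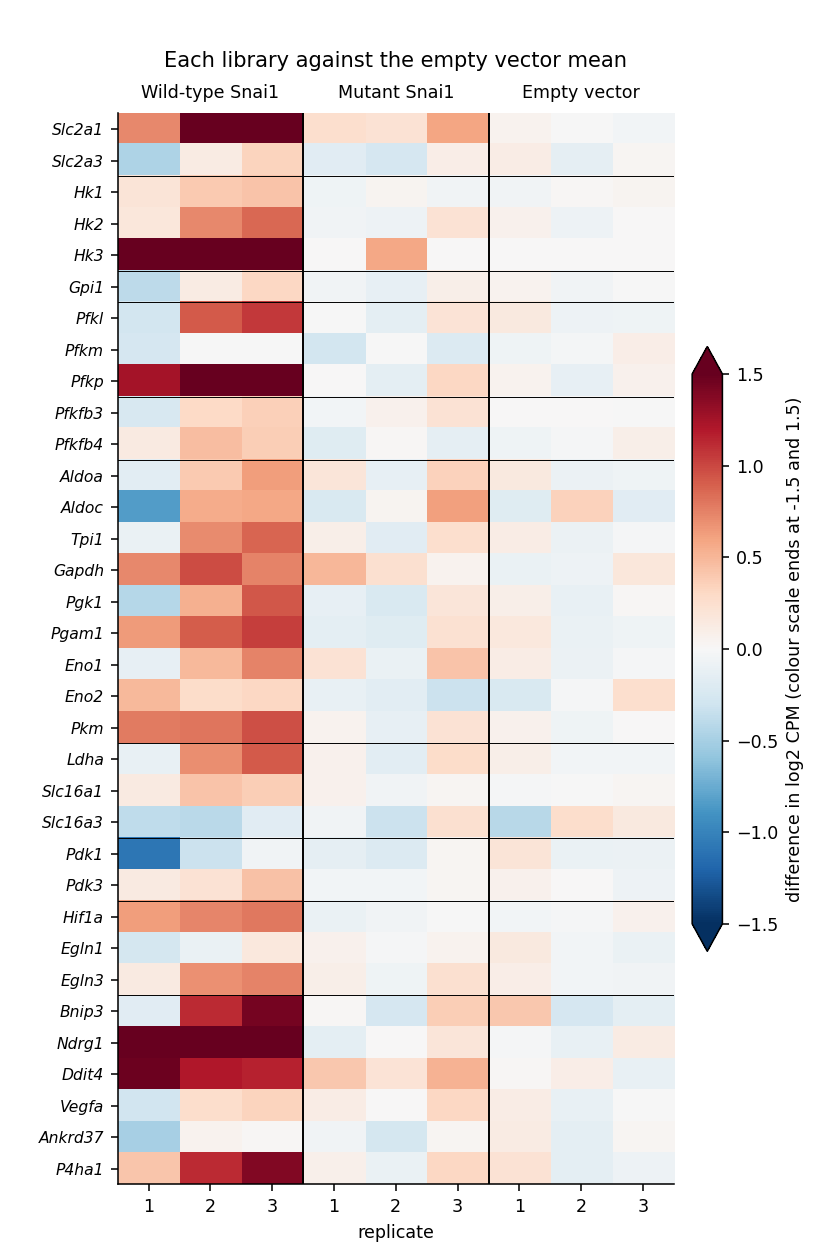
Difference of each library's log2 CPM from the empty vector mean for the 34 tested genes in order of their role, with colours that end at -1.5 and 1.5. The wild-type replicate 1 column is above 0 for 17 of the genes, and the columns of wild-type replicates 2 and 3 are above 0 for 30 and 31.

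**Figure D4:**
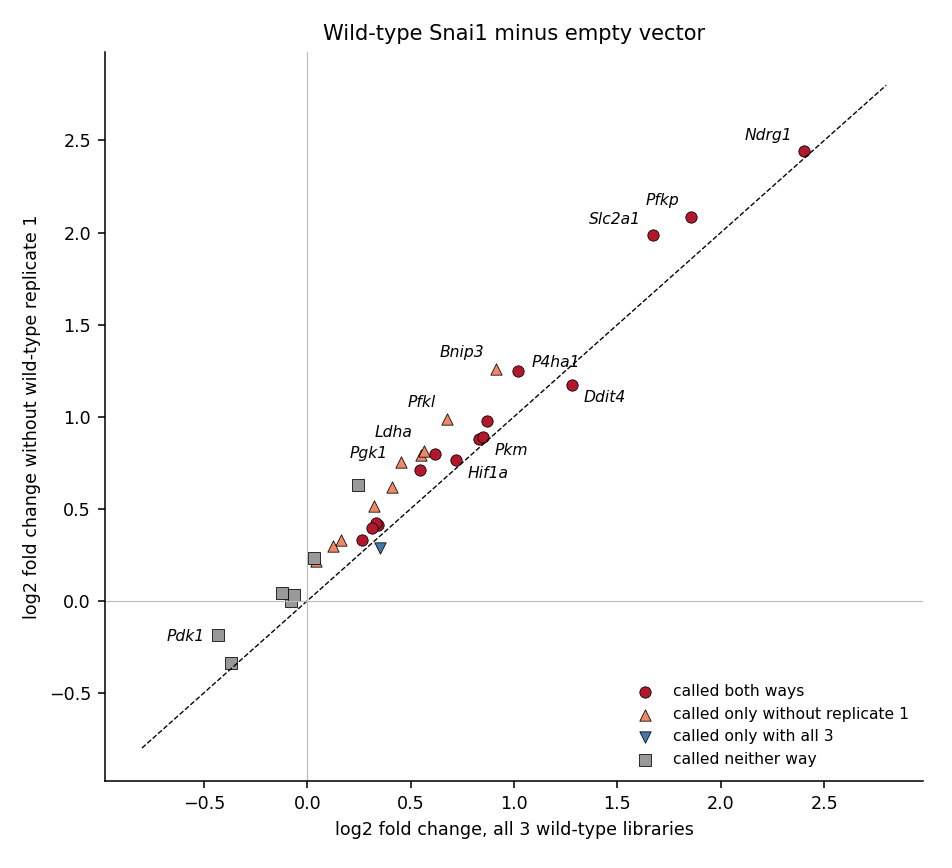
Log2 fold change of wild-type Snai1 minus empty vector without wild-type replicate 1 (vertical) against that with all 3 wild-type libraries (horizontal), for 33 genes without Hk3; the dashed line marks equal values. Circles were called both ways, 10 triangles only without replicate 1, and the inverted triangle, Eno2, only with all 3.

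Lactate dehydrogenase A, encoded by Ldha, turns pyruvate into lactate. Ldha, chosen for display after its values were seen, had 636, 1112 and 1304 CPM with wild type, 719, 615 and 832 CPM with the mutant and 728, 665 and 668 CPM with empty vector. Its log2 fold change over empty vector was 0.57 (SE 0.23, adjusted p 0.0714 by edgeR), 0.81 (adjusted p 0.000785) without wild-type replicate 1, and 0.57 (adjusted p 0.0142) by DESeq2 on all libraries. Ldhb, the heart type subunit, had no counts, so no fold can be given. Slc16a1, the lactate carrier Mct1, averaged 138 ± 14.5 CPM with wild type, 112 ± 4.54 CPM with the mutant and 111 ± 1.91 CPM with empty vector and was higher over empty vector (log2 fold change 0.31, SE 0.07, adjusted p 0.00558). Slc16a3, the export carrier Mct4 and a HIF-1 target, averaged 1.26 ± 0.127 CPM with wild type, 1.56 ± 0.323 CPM with the mutant and 1.62 ± 0.400 CPM with empty vector, and its log2 fold change over empty vector did not pass (-0.37, SE 0.25, adjusted p 0.255). Its span overlaps Csnk1d.

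The pyruvate dehydrogenase kinases shut the entry of pyruvate into mitochondria. Pdk1, a HIF-1 target, had 70.2, 119 and 144 CPM with wild type, 136, 129 and 153 CPM with the mutant and 169.8, 139 and 139.9 CPM with empty vector; these values were also chosen after they were seen. Wild-type replicates 1 and 2 lay below all empty vector libraries and replicate 3 among them. The log2 fold change of -0.43 (SE 0.22) did not pass (adjusted p 0.142 by edgeR), and without wild-type replicate 3 it was -0.65 (adjusted p 0.0268). Pdk3 averaged 85.1 ± 9.46 CPM with wild type, 70.1 ± 1.78 CPM with the mutant and 70.8 ± 3.31 CPM with empty vector, and was 0.27 higher over empty vector on the log2 scale (SE 0.08, adjusted p 0.0183). This call was lost without wild-type replicate 3 or without empty vector replicate 2 or 3, with adjusted p of 0.0513 to 0.0634. Per length Pdk1 was 26.1%, 36.0% and 36.9% of the RNA of both kinases in wild-type libraries, 43.3%, 42.1% and 45.2% in mutant libraries and 47.2%, 43.2% and 44.7% in empty vector libraries. Every wild-type library had a lower Pdk1 share than any library of the other groups.

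The summed level of the 18 enzyme genes from hexokinase to lactate dehydrogenase was 2148, 2995 and 3415 CPM per kilobase in wild-type libraries, 2065, 1790 and 2330 in mutant libraries and 2084, 1868 and 1925 in empty vector libraries. The 18 include Ldhb, which had 0 counts and was not tested. Wild-type replicate 1 lay within the mutant range and just above the empty vector range. The ratio of means was 1.46 for wild type over empty vector, 1.05 for mutant over empty vector and 1.38 for wild type over mutant. Without wild-type replicate 1 the wild-type ratios were 1.64 over empty vector and 1.56 over the mutant. Without the 4 genes Gapdh, Aldoa, Eno1 and Pkm the sums were 939, 1539 and 1744 with wild type and 1048, 955 and 982 with empty vector, so wild-type replicate 1 then lay below all empty vector libraries.

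Among the oxygen sensing genes Hif1a and Egln3 were higher with wild-type Snai1 and Egln1 did not pass. Hif1a (gene 15251, chromosome 12, 73901324 to 73947554), which encodes the oxygen-regulated HIF-1 alpha, had 379, 405 and 425 CPM in wild-type libraries, 229, 236 and 244 CPM in mutant libraries and 237, 242 and 255 CPM in empty vector libraries. The wild-type libraries were tight and far above the others. The log2 fold change was 0.72 (SE 0.06, adjusted p 5.06e-06 by edgeR) over empty vector and 0.77 (SE 0.06, adjusted p 3.31e-06) over the mutant. HIF-1 alpha is known to be set mainly by protein stability, and protein was not measured. Egln3 (gene 112407, chromosome 12, 54178981 to 54203874), a prolyl hydroxylase that hypoxia induces, had 626, 918 and 951 CPM with wild type, 605, 545 and 674 CPM with the mutant and 610.2, 552 and 549 CPM with empty vector. Wild-type replicate 1 stood just above the empty vector libraries and within the mutant range. The log2 fold change was 0.54 (SE 0.15, adjusted p 0.0118) over empty vector and 0.45 (SE 0.15, adjusted p 0.0279) over the mutant, and the second call was lost without wild-type replicate 2 or 3 or mutant replicate 1 or 2, with adjusted p of 0.0731 to 0.0988. Egln1, the main oxygen sensor, averaged 70.0 ± 10.5 CPM with wild type, 74.8 ± 2.12 CPM with the mutant and 73.2 ± 6.94 CPM with empty vector.

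Of 6 hypoxia target genes 3 were higher with wild-type Snai1 than with empty vector and 0 lower, beside 25.2% and 24.3% of all tested genes. Ndrg1 (gene 17988, chromosome 15, 66929318 to 66969641), a stress gene also linked to myeloid differentiation, had 272, 296 and 295 CPM in wild-type libraries, 49.2, 54.8 and 61.6 CPM in mutant libraries and 53.8, 50.3 and 59.4 CPM in empty vector libraries. It had the smallest adjusted p of all members, and wild-type replicate 1 was close to the other wild-type libraries. Log2 fold changes of the wild type were 2.40 (SE 0.09, adjusted p 3.29e-08 by edgeR) over empty vector and 2.38 (SE 0.09, adjusted p 3.75e-08) over the mutant. Mutant over empty vector was 0.02 (SE 0.09, adjusted p 0.999).

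Ddit4 (gene 74747, chromosome 10, 59949675 to 59951770), an inhibitor of the growth kinase mTORC1, had 209, 173 and 167 CPM with wild type, 99.2, 86.6 and 108 CPM with the mutant and 75.8, 80.5 and 69.6 CPM with empty vector. The 3 groups did not overlap, with the mutant between the others, and wild-type replicate 1 was the highest library. In log2 terms the differences were 1.28 (SE 0.11, adjusted p 6.03e-06 by edgeR) for wild type over empty vector, 0.90 (SE 0.10, adjusted p 6.34e-05) for wild type over mutant and 0.38 (SE 0.10, adjusted p 0.98) for mutant over empty vector. P4ha1 (gene 18451, chromosome 10, 59323197 to 59373304), a collagen prolyl hydroxylase subunit, had 83.9, 136 and 164 CPM with wild type, 66.1, 58.5 and 78.2 CPM with the mutant and 73.4, 57.0 and 59.4 CPM with empty vector. All wild-type libraries lay above the others, replicate 1 by the least. Its log2 fold change was 1.02 (SE 0.23, adjusted p 0.00566) over empty vector and 0.92 (SE 0.23, adjusted p 0.0095) over the mutant.

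Bnip3, Vegfa and Ankrd37 did not pass. Bnip3, a mitophagy receptor chosen for display after its values were seen, had 35.6, 87.3 and 108 CPM with wild type, 40.8, 33.7 and 51.9 CPM with the mutant and 52.9, 33.7 and 36.2 CPM with empty vector. Replicate 1 lay among the empty vector libraries and the other wild-type libraries above all of them. The log2 fold change was 0.91 (SE 0.39, adjusted p 0.0837 by edgeR), and 1.26 (adjusted p 0.00838) without replicate 1. Vegfa, the vessel growth factor, averaged 72.0 ± 15.8 CPM with wild type, 72.9 ± 8.01 CPM with the mutant and 66.0 ± 5.25 CPM with empty vector, and passed without wild-type replicate 1 (log2 fold change 0.30, adjusted p 0.00684). Ankrd37, another HIF-1 target, averaged 3.59 ± 0.736 CPM with wild type, 3.67 ± 0.382 CPM with the mutant and 3.91 ± 0.372 CPM with empty vector, and its span overlaps Ufsp2.

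**Figure D5:**
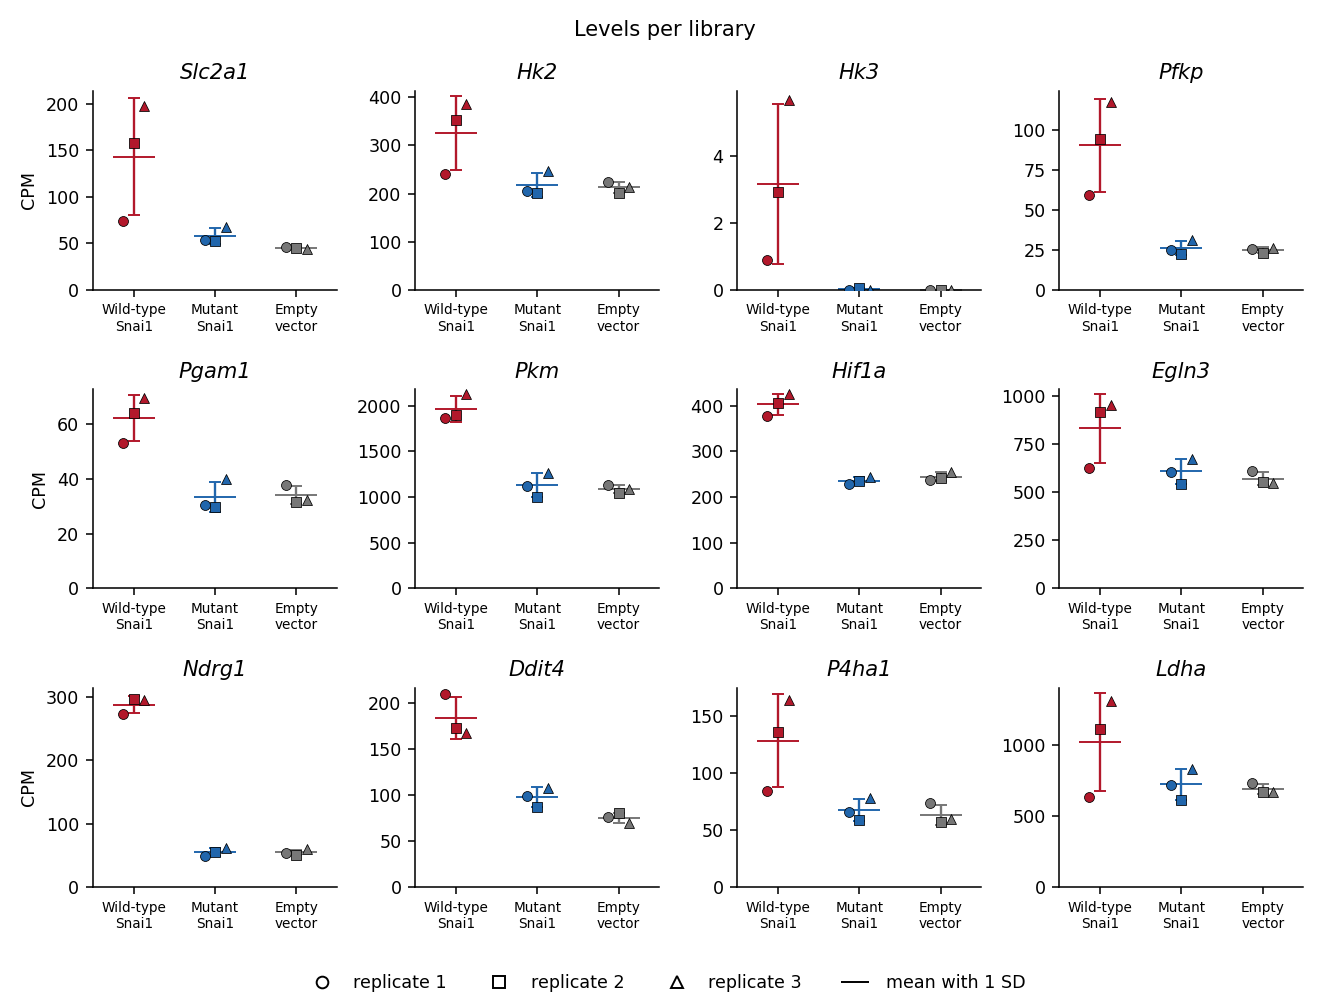
Levels in CPM of 12 genes in each library, where horizontal lines and bars give the group mean and 1 SD (n = 3) and the point shapes tell replicates apart. Ndrg1, Hif1a and Pkm show 3 wild-type libraries close together above the other groups. For Slc2a1 and P4ha1 wild-type replicate 1 (circle) lies above the other groups but closest to them. For Ldha it lies below all empty vector libraries and within the mutant range.

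Lists of other genes of the same pathways stand beside 25.2% of all tested genes called higher and 24.3% called lower. Of 16 tested isoforms of glycolytic enzymes and carriers outside the group, 7 were higher and 5 lower with wild-type Snai1 than with empty vector. Among those with the smallest adjusted p, 2 fell: Bpgm, which makes 2,3-bisphosphoglycerate, to 61.6 ± 4.15 CPM against 211 ± 6.62 CPM with the mutant and 209 ± 9.05 CPM with empty vector (log2 fold change -1.76, adjusted p 2.38e-08 by edgeR), and the carrier Slc16a6 (-1.34, adjusted p 1.66e-06). Of 12 genes of mitochondrial pyruvate use, 3 were higher and 2 lower, close to the share over all tested genes for the higher ones. Pyruvate carboxylase, Pcx, was at 16.7 ± 1.77 CPM with wild type, 4.90 ± 0.277 CPM with the mutant and 4.89 ± 0.664 CPM with empty vector (log2 fold change 1.78, adjusted p 2.91e-06). The dehydrogenase subunit Pdha1 (-0.49, adjusted p 2.22e-05) and the kinase Pdk2 (-0.99, adjusted p 0.00237) fell.

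Of 14 tested HIF subunits and oxygen sensing genes, 5 were higher and 3 lower with wild-type Snai1 than with empty vector, beside the same 25.2% and 24.3% of all tested genes. Hif3a, a HIF subunit that can oppose HIF-1, fell to 18.7 ± 2.04 CPM with wild type, against 40.4 ± 1.90 CPM with the mutant and 39.1 ± 1.26 CPM with empty vector (log2 fold change -1.06, adjusted p 5.34e-06 by edgeR). Cited2, a hypoxia-induced inhibitor of HIF-1, was higher (1.04, adjusted p 3.11e-05), as was Elob (0.35, adjusted p 0.00199), a subunit of the ubiquitin ligase that removes HIF-1 alpha. Of 28 tested hypoxia response genes outside the group, 9 were higher, 2 lower and 17 did not pass, beside the same shares, and their log2 fold changes had a median of 0.08. The creatine carrier Slc6a8 (2.04, adjusted p 8.37e-07), the collagen hydroxylase Plod1 (1.40, adjusted p 6.19e-06) and the repressor Bhlhe40 (1.34, adjusted p 7.14e-05) had the smallest adjusted p. With mutant Snai1, 0 genes of these 4 lists were called against empty vector, in a comparison with the single call given above.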

How the data were processed

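RNA of GFP-positive HPC7 cells (RNeasy midi extraction, TruSeq stranded mRNA libraries, per the labels) was sequenced in 9 libraries. The deposited values were raw counts per Entrez gene, made by the authors with featureCounts on mm10, and edgeR 3.15.0 and limma 3.29.12 were also named, per the submitters' processing notes. Which aligner, annotation and strand setting were used is not given in the sources used here, so reads of overlapping and near-identical genes cannot be assigned with certainty, and Snai1 counts include the vector's transcript. Of 27179 identifiers 25275 matched a GRCm38.p6 RefSeq symbol and 1904 did not; 35 of 35 members and 199 of 200 other listed genes matched. There were 0 columns of other samples.

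Groups came from the sample titles. In R 4.3.3, edgeR 4.0.16 was run on all 9 libraries in 1 quasi-likelihood fit (filterByExpr, TMM, robust estimation), and p-values were adjusted over the 12484 tested genes by the Benjamini-Hochberg method; genes under 0.05 were called. The fit was checked on simulated data. Levels per length divide CPM by the length column of the deposited table. Floors used 3 counts per library, and intervals cover counting error only. Copies were searched as 50-base words in GENCODE M21 transcripts. Motifs were searched in the 250 bases before each RefSeq start.

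The members and the gene lists were chosen with earlier results of these data known, so no test was made over a list. Members called with an absolute log2 fold change of at least 0.5 are given per library; of every other list up to 3 genes with the smallest adjusted p are named, except that some results are not reported here. Of the marker lists, 2 of 10 progenitor markers were higher and 4 lower with wild type than with empty vector, 4 of 7 tested late neutrophil markers higher and 1 lower, 0 of 6 tested erythroid markers higher and 5 lower, 1 of 2 tested mast cell markers higher, and 2 of 4 tested megakaryocyte markers higher and 1 lower. These counts stand beside 25.2% of all tested genes higher and 24.3% lower. Alternatives were RLE scaling, no filter on low counts, DESeq2 1.42.0, the replicate number as a block and leaving out each library in turn.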

Additional observations from a re-analysis of the deposited data

How the results depend on the processing

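No called member changed direction under any alternative, but some members that did not pass changed sign, such as Egln1 and Ankrd37 over empty vector without wild-type replicate 1, and so did the members' median for mutant Snai1 over empty vector, which was 0.03 with all libraries and -0.05 without mutant replicate 3. For wild-type Snai1 against empty vector, leaving out 1 library at a time gave 14 to 26 members higher, with 26 without wild-type replicate 1, and 0 to 1 lower, the 1 being Pdk1 without wild-type replicate 3; over all genes 5106 to 7410 were called, and the members' median log2 fold change was 0.34 to 0.67. For mutant Snai1 against empty vector these ranges were 0 to 1 members higher, 0 lower, 1 to 62 genes called and a median of -0.05 to 0.08, with 62 genes without wild-type replicate 1 and 2 without wild-type replicate 2. DESeq2 called 8 genes in that comparison, 5 higher and 3 lower. For wild type against mutant they were 15 to 25 members higher, 0 lower, 4978 to 7308 genes called and a median of 0.31 to 0.56. DESeq2 called 19 members higher in both wild-type comparisons, adding Tpi1 and Ldha.

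Of the 17 members called in each wild-type comparison, 14 were called under every setting against empty vector (not Eno2, Pdk3 and Pfkfb4) and 13 against the mutant (not Egln3, Hk2, Gapdh and Pdk3). Without the filter on low counts, Eno2 over empty vector (adjusted p 0.0641) and Egln3 over the mutant (0.058) were lost. With the replicate number as a block, 16 members were higher over empty vector, Eno2 being lost (adjusted p 0.0752), 17 over the mutant, and 0 with the mutant over empty vector; the block changed no other call of a member. It called 2976 genes higher and 2910 lower for wild type over empty vector. The meaning of the replicate numbers is not in the labels. After removal of group means, libraries of 1 number correlated at -0.0873 to 0.21, with 2 of 9 pairs above 0.1, and libraries of different numbers at -0.165 to 0.117, with 1 of 18 pairs above 0.1, so the numbers were not used as pairs.

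At these depths low genes such as Aldoc, Slc16a3 and Hk3 in single libraries rest on few counts, and 3 libraries per group limit what the mutant comparison can call.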

Other observations

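Regulators of nutrient use and growth moved with wild-type Snai1 in both directions: of 18 tested, 4 were higher and 5 lower than with empty vector (edgeR, adjusted p under 0.05), beside 25.2% and 24.3% of all tested genes. Txnip, an inhibitor of glucose uptake, fell to 222 ± 17.5 CPM with wild type, against 589 ± 93.6 CPM with the mutant and 609 ± 43.4 CPM with empty vector (SD, n = 3 each; log2 fold change -1.45, adjusted p 3.76e-06). Mycn fell to 5.63 ± 2.30 CPM with wild type, against 57.2 ± 6.93 CPM with the mutant and 68.5 ± 7.35 CPM with empty vector (log2 fold change -3.60, adjusted p 4.65e-06). Myc, which drives many glycolytic genes in other cells, fell to 195 ± 16.2 CPM with wild type, against 318 ± 9.87 CPM with the mutant and 333 ± 18.3 CPM with empty vector (log2 fold change -0.77, adjusted p 1.01e-05).

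Of 8 tested genes of the pentose phosphate pathway, 2 were higher and 1 lower with wild-type Snai1 than with empty vector, beside the same shares of all tested genes. Its NADPH-forming dehydrogenases were the higher ones: Pgd was at 192 ± 2.99 CPM with wild type, 134 ± 2.01 CPM with the mutant and 140.3 ± 3.59 CPM with empty vector (log2 fold change 0.45, adjusted p 2.36e-05), and G6pdx was at 96.2 ± 16 CPM with wild type, 69.0 ± 2.62 CPM with the mutant and 65.2 ± 2.75 CPM with empty vector (0.56, adjusted p 0.00116). Taldo1, a transaldolase, was lower (-0.28, adjusted p 0.0109). Of 12 genes of gluconeogenesis and glycogen, 7 were higher and 3 lower. The glycogen phosphorylase Pygb fell (-0.77, adjusted p 6.34e-05), while Ugp2, which makes the glucose donor for glycogen, rose (0.70, adjusted p 8.72e-05).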
